A study of Mus musculus with 19 samples.

Results

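The 7 genes of the NMDA receptor family, Grin1, Grin2a, Grin2b, Grin2c, Grin2d, Grin3a and Grin3b, were followed in cultured mouse hippocampal neurons under reduced and raised network activity. They were taken by gene name from the expression files, which hold 24058 names used once, and all 7 names were present. The neurons came from hippocampi of embryonic day 17 and were grown for 10 days in vitro. The untreated group is the control, the TTX group received TTX (tetrodotoxin, a blocker of voltage-gated sodium channels that stops action potentials) for a time not given in the sources used here, and the Bic/4AP group received Bic/4AP for 3 h. Bic is bicuculline, which blocks GABA-A receptors, and 4AP is 4-aminopyridine, which blocks potassium channels, and the pair raises synaptic firing. No genotype other than the strain is labelled, and the cultures hold whatever non-neuronal cells the preparation left. RNA-seq was made from 3 libraries per group and H3K27ac ChIP-seq from 2 untreated and 2 Bic/4AP samples, all from ICR mice. CpG methylation came from 1 bisulfite library per treatment, made from C57BL/6 mice, so methylation and expression were not read in the same animals. Whether the 3 RNA libraries of a group stem from separate cultures is not labelled. The p-values therefore cover only how these libraries scatter, and that scatter may be technical.

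NMDA receptors are glutamate-gated channels that let calcium into the neuron when glutamate binds while the membrane is depolarized. Every receptor holds GluN1, the glycine-binding subunit encoded by Grin1, together with GluN2 subunits, which bind glutamate and set the kinetics, or GluN3 subunits, which bind glycine and lower calcium entry. In rodent forebrain Grin2b and Grin2d are expressed early, and Grin2a rises as synapses mature, a change in subunit make-up that activity is known to drive.

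The expression values are RPKM, that is reads scaled to gene length and library size, so levels can be compared between genes. Library depth, recovered from the size of the step that 1 read makes in the deposited values, was 9.68 to 12.6 M (mega) reads with TTX, 5.63 to 9.97 M reads untreated and 4.34 to 4.59 M reads with Bic/4AP. Untreated library 2 was the deepest of its group, and for Grin1, Grin2a, Grin2b and Grin3a it lay closer to the treated groups than libraries 1 and 3 did. Other cell types also moved with the groups. Of 10 choroid plexus markers, 10 were lower than untreated in both treatments, and their summed level was 362 to 541 RPKM untreated, 7.23 to 11.4 RPKM with TTX and 24.1 to 29.4 RPKM with Bic/4AP, with none at 0 throughout a group. Summed astrocyte markers were 70.1 to 87.8 RPKM untreated, 112 to 138 RPKM with TTX and 116 to 146 RPKM with Bic/4AP. Summed neuron markers were 696 to 839, 630 to 705 and 1133 to 1169 RPKM in the same order, and markers of hippocampal excitatory neurons were present in all groups at sums of 242 to 331 RPKM. Oligodendrocyte lineage (22.6 to 29.3, 42.9 to 52.1 and 22.1 to 28.7 RPKM), microglia (7.27 to 9.26, 8.76 to 11.5 and 6.35 to 8.32 RPKM), vascular (9.85 to 11.8, 20.5 to 26.2 and 8.06 to 10.1 RPKM) and progenitor markers (16.8 to 21.5, 31.6 to 38.3 and 33.3 to 37.2 RPKM) were low. The part of these cell types in the results below was not tested. In bulk RNA, fewer cells of a type and less RNA per cell cannot be told apart.

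The 7 genes lie on 7 chromosomes of the GRCm38 (mm10) assembly. Grin1 spans chr2:25291177-25319187, Grin2a chr16:9567901-9996083, Grin2b chr6:135713221-136173615, Grin2c chr11:115249169-115267297, Grin2d chr7:45831883-45871194, Grin3a chr4:49661611-49846023 and Grin3b chr10:79970397-79977190. Grin2a and Grin2b are the longest, at 428 and 460 kb, followed by Grin3a at 184 kb, whereas the other 4 genes span between 6.79 and 39.3 kb. RefSeq promoter entries, each with 250 bases before the start site and 50 after it, matched Grin1, Grin2c, Grin2d and Grin3b. They are shown because the methylation and H3K27ac results below are read at these sites. Each is written 5′ to 3′ on the gene's own strand, with every CpG, the dinucleotide that carries DNA methylation, in capitals.
Grin1 promoter, chr2:25319138-25319437, minus strand: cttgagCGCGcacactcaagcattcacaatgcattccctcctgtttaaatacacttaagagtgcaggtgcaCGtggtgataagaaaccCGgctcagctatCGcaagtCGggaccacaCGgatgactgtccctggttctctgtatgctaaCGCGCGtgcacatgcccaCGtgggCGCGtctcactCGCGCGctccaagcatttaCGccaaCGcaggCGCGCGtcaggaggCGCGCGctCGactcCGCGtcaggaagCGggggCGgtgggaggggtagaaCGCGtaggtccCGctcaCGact
Grin2c promoter, chr11:115267194-115267493, minus strand: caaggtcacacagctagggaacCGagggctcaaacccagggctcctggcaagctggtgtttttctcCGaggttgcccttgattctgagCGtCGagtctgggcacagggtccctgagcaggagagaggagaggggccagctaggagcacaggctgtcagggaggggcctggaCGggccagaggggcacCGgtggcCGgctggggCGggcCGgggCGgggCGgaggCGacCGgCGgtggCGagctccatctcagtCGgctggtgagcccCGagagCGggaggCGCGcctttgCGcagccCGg
Grin2d promoter, chr7:45866632-45866931, minus strand: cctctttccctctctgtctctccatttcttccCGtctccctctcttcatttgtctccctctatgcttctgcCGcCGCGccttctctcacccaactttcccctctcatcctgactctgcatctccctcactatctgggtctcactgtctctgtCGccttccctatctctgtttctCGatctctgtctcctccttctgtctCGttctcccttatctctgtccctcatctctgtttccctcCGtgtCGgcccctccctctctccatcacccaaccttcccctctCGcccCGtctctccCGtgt
Grin3b promoter, chr10:79970474-79970773, plus strand: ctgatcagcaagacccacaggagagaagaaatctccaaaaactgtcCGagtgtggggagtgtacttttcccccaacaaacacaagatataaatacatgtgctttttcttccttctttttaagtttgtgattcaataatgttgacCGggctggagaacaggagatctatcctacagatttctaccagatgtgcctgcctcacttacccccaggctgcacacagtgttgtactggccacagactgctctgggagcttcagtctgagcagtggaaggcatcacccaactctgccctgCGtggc
The Grin1 entry holds 33 CpGs, more than 88.9% of the 16781 promoters of genes in the expression files have. Grin2c holds 22 CpGs and the highest content of G and C among the 4, at 70.0%. Grin2d holds 12, close to the median of 14, and Grin3b holds 3.

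In untreated neurons the family was carried by Grin2a, Grin1 and Grin2b. Their mean levels were 53.3 ± 7.32, 46.9 ± 6.23 and 46.5 ± 3.29 RPKM (SD, n = 3), and the libraries of these 3 genes overlapped. Grin3a followed at 9.84 ± 2.57 RPKM and Grin2d at 4.69 ± 0.575 RPKM, with no overlap between the libraries of these neighbours. Grin2c stood at 1.03 ± 0.314 RPKM, and Grin3b at 0.0550 ± 0.0480 RPKM, from 0, 3 and 2 reads. Under both treatments Grin2b came first, at 40.0 ± 1.47 RPKM with TTX and 34.6 ± 1.52 RPKM with Bic/4AP. Grin1 was second, at means of 34.3 and 28.6 RPKM, and Grin2a came next, at 25.4 ± 0.809 and 25.2 ± 1.41 RPKM, and the libraries of these 3 genes did not overlap within either treated group. With TTX the next were Grin3a at 12.1 ± 0.507 and Grin2d at 9.49 ± 0.196 RPKM, and with Bic/4AP Grin3a at 12.8 ± 1.37 and Grin2d at 3.20 ± 0.479 RPKM. Summed over the 7 genes, untreated neurons had 162 ± 13.9 RPKM, TTX neurons 122 ± 3.73 RPKM and Bic/4AP neurons 105 ± 3.26 RPKM.

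**Figure D1:**
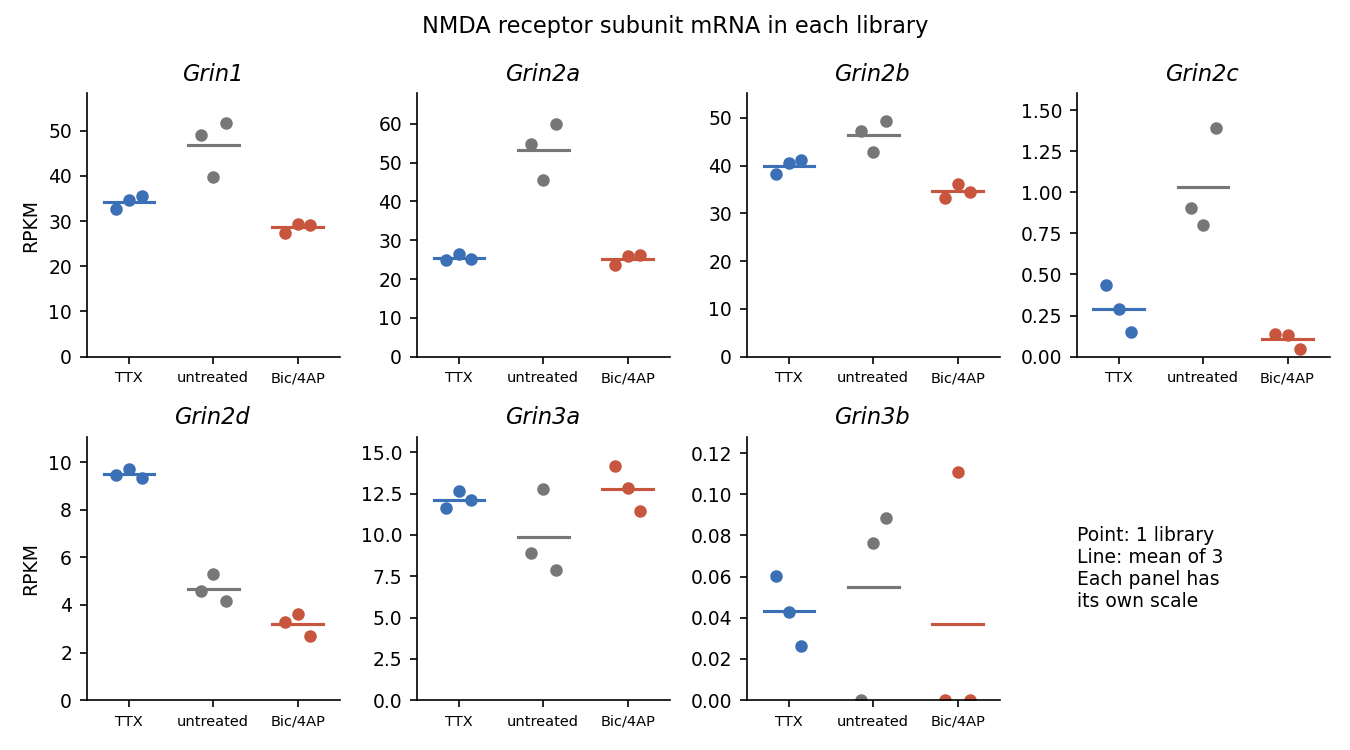
Expression (RPKM, vertical axis) of the 7 NMDA receptor genes in each RNA-seq library, by group on the horizontal axis, with a line at the mean of the 3 libraries of a group and a scale of its own in each panel. Grin1, Grin2a, Grin2b and Grin2c were highest untreated, Grin2d was highest with TTX, the groups of Grin3a overlapped, and Grin3b reached at most 0.111 RPKM.

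The comparison of Bic/4AP with untreated neurons asks how the subunits differed after 3 h of Bic/4AP. Genes were tested with limma on log2(RPKM + 1), a scale that understates changes of low genes, and passed at an adjusted p of 0.05 over 14801 genes with at least 1 RPKM in 3 or more libraries. Grin2c and Grin3b did not reach that level, so 5 members were tested. Of the 5, 4 fell, a direction in which 42.5% of all tested genes passed, and 1 rose, a direction in which 29.6% passed. A fall was thus common in the whole table, and the median change of all genes was -0.12 on the log2 scale. It was less common among highly expressed genes. In the decile of mean expression that holds Grin1, Grin2a and Grin2b the median change was 0.19, and 18.8% of genes fell.

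Grin1, the obligatory subunit, read 49.1, 39.8 and 51.7 RPKM untreated and 27.4, 29.3 and 29.1 RPKM with Bic/4AP. All 3 treated libraries lay below all untreated ones. The log2 difference was -0.68 ± 0.083 (SE, limma adjusted p = 1.37e-05), or -0.56 relative to the median gene.

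Grin2a, which encodes the subunit that predominates at mature synapses, read 54.8, 45.4 and 59.8 RPKM untreated and 23.6, 25.9 and 26.1 RPKM with Bic/4AP. The groups stood far apart. It had the largest change of the 5 tested members, -1.05 ± 0.086 (SE, limma adjusted p = 5.21e-07), which is a mean level 2.12 times higher untreated.

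Grin2b, which encodes the subunit that predominates early in development, read 47.3, 42.9 and 49.3 RPKM untreated and 33.2, 36.2 and 34.4 RPKM with Bic/4AP. The groups did not overlap, and the gap between them was narrower than for Grin2a. The difference was -0.41 ± 0.061 (SE, limma adjusted p = 7.03e-05).

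Grin2d, whose product gives slowly closing channels and is expressed mainly early and in interneurons, read 4.58, 5.31 and 4.17 RPKM untreated and 3.28, 3.63 and 2.68 RPKM with Bic/4AP. It was lower in all 3 treated libraries, by -0.44 ± 0.13 (SE, limma adjusted p = 0.0113). That direction depended on the scaling between libraries, since the difference was 0.22 after quantile normalization and 0.08 after cyclic loess normalization (limma adjusted p = 0.0990 and 0.532). Among genes of the same decile of mean expression the median difference was -0.54.

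Grin3a, which encodes a glycine-binding subunit that limits calcium entry, read 8.88, 12.8 and 7.88 RPKM untreated and 14.2, 12.8 and 11.4 RPKM with Bic/4AP. Untreated library 2 lay inside the treated range, so the groups overlapped. It rose by 0.37 ± 0.14 (SE, limma adjusted p = 0.0356). The call was lost without untreated library 1 (0.32, limma adjusted p = 0.109), untreated library 3 (0.24, 0.141), Bic/4AP library 1 (0.30, 0.123) or Bic/4AP library 2 (0.37, 0.0748). It also was lost with no filter on low genes (limma adjusted p = 0.0554) and when only these groups entered the fit (0.0614), while quantile and cyclic loess normalization gave 0.78 and 0.81 (limma adjusted p = 0.000258 and 8.59e-05).

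Grin2c, best known from cerebellar granule cells, was close to the limit of detection. It had 25, 39 and 39 reads untreated (0.906, 0.799 and 1.39 RPKM) and 3, 3 and 1 reads with Bic/4AP (0.135, 0.134 and 0.0471 RPKM). All treated libraries lay below all untreated ones. Pooled over the 3 libraries the level was 0.986 RPKM untreated and 0.106 RPKM with Bic/4AP, with exact Poisson 95% intervals of 0.805 to 1.20 and 0.0428 to 0.219 RPKM that cover counting error only. When no filter was used, its log2 difference was -0.87 (limma adjusted p = 0.000196). Grin3b, a glycine-binding subunit gene best known from motor neurons, had 0, 2 and 0 reads with Bic/4AP and 5 reads in all untreated libraries together. A difference of Grin3b was not detectable at this depth.

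The comparison of TTX with untreated neurons asks how the same genes differed with TTX, and it shares the untreated libraries with the comparison above. A trait of those untreated cultures would enter both comparisons and cannot be told apart from an effect of treatment. Of the 5 tested members 3 fell, where 23.5% of all genes did, and 1 rose, where 40.6% did. The median gene changed by 0.13 on the log2 scale.

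Grin1 read 32.7, 34.6 and 35.6 RPKM with TTX, below every untreated library. The difference was -0.43 ± 0.083 (SE, limma adjusted p = 0.000782), or -0.56 relative to the median gene. Grin2a read 24.8, 26.3 and 25.1 RPKM, again far below untreated, with a difference of -1.03 ± 0.086 (SE, limma adjusted p = 2.34e-06). Grin2b read 38.4, 40.6 and 41.1 RPKM, just under the lowest untreated library at 42.9 RPKM. It fell by 0.21 (SE 0.061, limma adjusted p = 0.0104), and without TTX library 1 the call was lost (limma adjusted p = 0.0512).

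Grin2d went the other way. It read 9.46, 9.70 and 9.31 RPKM with TTX, and each of these values was above the highest untreated one, 5.31 RPKM. The log2 difference was 0.89 ± 0.13 (SE, limma adjusted p = 0.000143), a mean level 2.03 times the untreated one. It kept this direction and the call after quantile normalization (0.77) and cyclic loess normalization (0.59).

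Grin3a read 11.6, 12.6 and 12.1 RPKM with TTX, all within the untreated range, since untreated library 2 (12.8 RPKM) lay above them and libraries 1 and 3 below. Its difference of 0.30 ± 0.14 did not pass (SE, limma adjusted p = 0.0843). Without untreated library 2 it was 0.49 and passed (limma adjusted p = 0.00118), and after cyclic loess normalization it was -0.03. Grin2c had 27, 17 and 7 reads with TTX, or 0.436, 0.293 and 0.148 RPKM, all below the untreated libraries. With no filter its difference was -0.65 (limma adjusted p = 0.00190). Grin3b had 3, 2 and 1 reads.

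**Figure D2:**
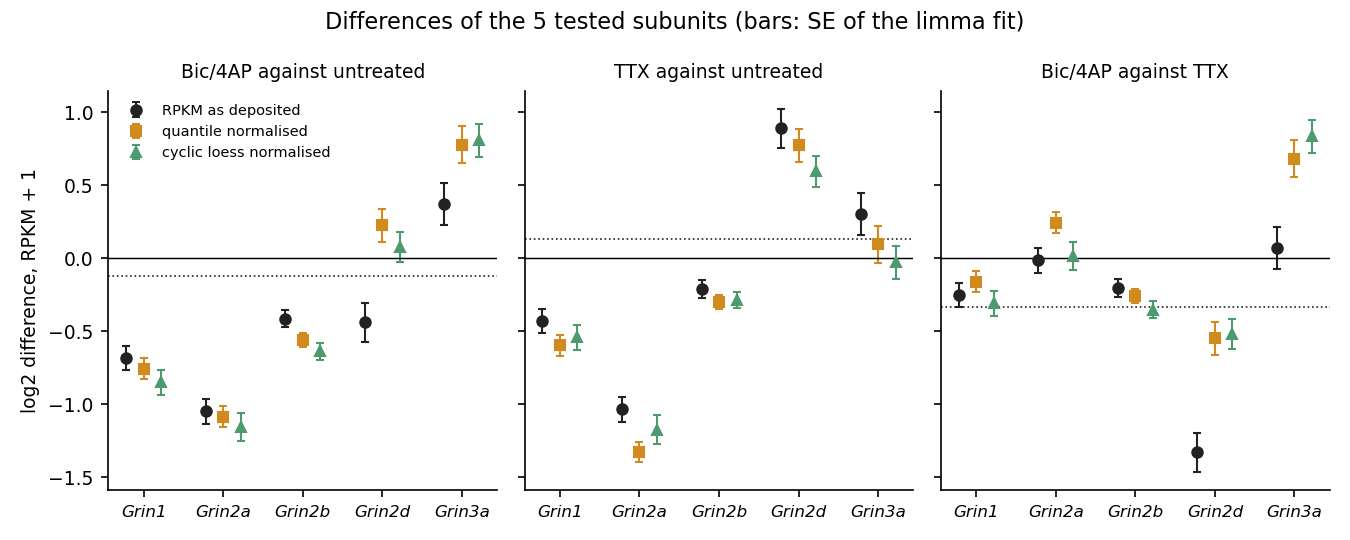
Log2 differences of RPKM + 1 (vertical axis) for the 5 tested NMDA receptor genes in the 3 comparisons, with bars for the SE of the limma fit and a dotted line at the median of all 14801 tested genes on the deposited scale. Grin1, Grin2a and Grin2b lay below 0 against untreated under all 3 scalings, whereas Grin2d with Bic/4AP was -0.44 as deposited and 0.22 after quantile normalization.

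The direct comparison of Bic/4AP with TTX asks in which genes the 2 opposite treatments differed. No member was called higher and 3 were called lower, where 23.7% of all genes were called higher and 53.1% lower. The median gene changed by -0.33. Grin2d differed most, at -1.33 ± 0.13 (SE, limma adjusted p = 2.41e-06), and it stayed lower after quantile (-0.55) and cyclic loess normalization (-0.52). Among genes of its decile of mean expression the median difference was -0.78, and 66.2% of genes were called lower. Grin2b differed by -0.20 ± 0.061 (SE, limma adjusted p = 0.00913) and Grin1 by -0.25 ± 0.083 (SE, limma adjusted p = 0.0151). The Grin1 call was lost without TTX library 3, without Bic/4AP library 1 and after quantile normalization (limma adjusted p = 0.0552, 0.0529 and 0.0629).

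Grin2a did not differ detectably between the treatments, with overlapping libraries and a difference of -0.01 ± 0.086 (SE, limma adjusted p = 0.901), but after quantile normalization it was 0.24 and passed (0.00874). Grin3a differed by 0.07 ± 0.14 (SE, limma adjusted p = 0.682) on the deposited scale and by 0.68 and 0.84 after quantile and cyclic loess normalization, where it passed (limma adjusted p = 0.000597 and 6.46e-05). The counts of members were 2 higher and 2 lower after quantile normalization and 1 higher and 3 lower after cyclic loess normalization. Grin2c had 7 reads with Bic/4AP and 51 with TTX over 3 libraries, and all Bic/4AP libraries lay below all TTX ones. Exact Poisson 95% intervals of the pooled level, which cover counting error only, were 0.0428 to 0.219 and 0.227 to 0.401 RPKM. When no filter was used, its difference on the log2(RPKM + 1) scale was -0.22 and did not pass (limma adjusted p = 0.163).

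Ratios between subunits do not depend on a factor that scales a whole library. The log2 ratio of Grin2a to Grin2b was 0.21, 0.08 and 0.28 in the untreated libraries, -0.50, -0.49 and -0.40 with Bic/4AP and -0.63, -0.63 and -0.71 with TTX. Grin2a thus exceeded Grin2b in all 3 untreated libraries and lay below it in all 6 treated ones. The mean fell from 0.19 ± 0.10 to -0.46 ± 0.053 with Bic/4AP and to -0.66 ± 0.050 with TTX (SD, n = 3). The differences from untreated were -0.65 and -0.85, and Bic/4AP exceeded TTX by 0.20. Each had a two-sided exact permutation p = 0.1, the smallest that 3 against 3 libraries allow, and 0.15 after Benjamini-Hochberg adjustment over the 12 tests of 4 ratios, so none can pass in this design.

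As a share of the summed Grin2 RPKM, Grin2a made up 51.0, 48.1 and 52.2% untreated, 39.1, 39.3 and 41.3% with Bic/4AP and 34.0, 34.2 and 33.1% with TTX. Grin2b made up 44.1 ± 1.23%, 54.9 ± 0.399% and 53.2 ± 1.00% in the same order (SD, n = 3). The share of Grin2a was thus lower, and that of Grin2b higher, in all 6 treated libraries than in any untreated one. Grin2d made up 4.51 ± 1.02% untreated and 5.06 ± 0.715% with Bic/4AP, whose libraries overlapped, but 12.6 ± 0.319% with TTX. Relative to Grin2b, Grin2d had a log2 ratio of -3.31 ± 0.28 in untreated, -3.45 ± 0.20 in Bic/4AP and -2.08 ± 0.062 in TTX libraries (two-sided exact permutation p = 0.1 for TTX and 0.6 for Bic/4AP against untreated).

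The log2 ratio of the sum of the 4 Grin2 genes to Grin1 was 1.18 ± 0.060 untreated, 1.14 ± 0.024 with Bic/4AP and 1.13 ± 0.040 with TTX (SD, n = 3), and the groups overlapped (two-sided exact permutation p = 0.6 for each treatment against untreated). Grin3a moved relative to Grin1. The log2 ratio of Grin3a to Grin1 was -2.47, -1.64 and -2.71 untreated, -1.49, -1.45 and -1.55 with TTX and -0.95, -1.19 and -1.35 with Bic/4AP. All 6 treated libraries lay above the 3 untreated ones, with untreated library 2 the closest (two-sided exact permutation p = 0.1, the smallest possible, for each treatment).

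**Figure D3:**
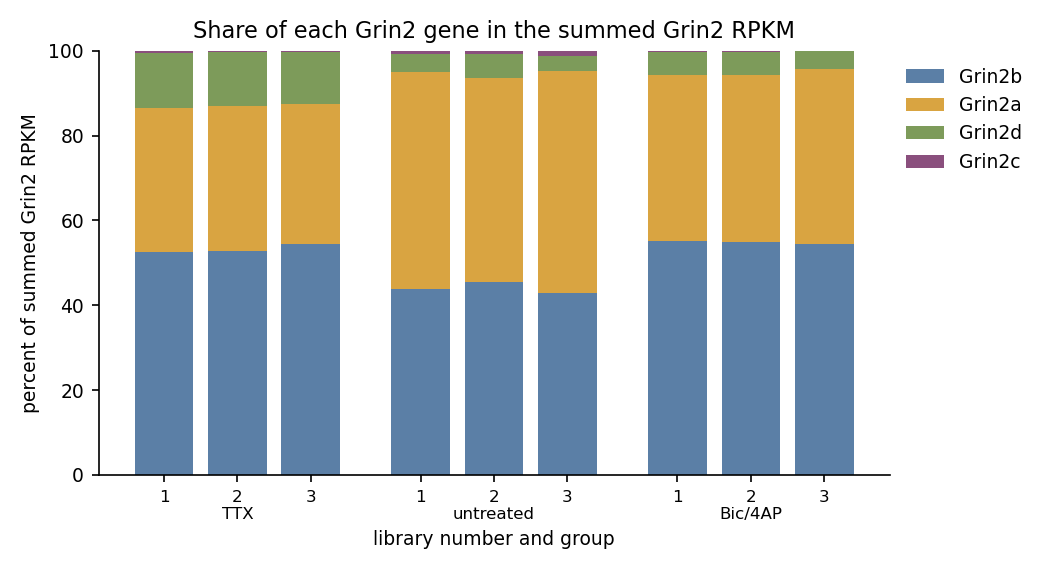
Share (percent, vertical axis) of each of the 4 Grin2 genes in their summed RPKM, with 1 stacked bar per RNA-seq library, by group. Grin2a took 48.1 to 52.2% untreated against 33.1 to 41.3% in the treated libraries, and Grin2d took 12.3 to 12.9% with TTX.

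The other ionotropic glutamate receptor subunits give the setting of these changes. The AMPA, kainate and delta subunits make up 11 genes, all tested. With Bic/4AP 2 of them rose and 7 fell against untreated, with a median of -0.43 beside -0.12 for all genes, of which 29.6% rose and 42.5% fell. With TTX 1 rose and 7 fell, with a median of -0.48 beside 0.13 for all genes, of which 40.6% rose and 23.5% fell, and after cyclic loess normalization 0 rose and 8 fell. The AMPA receptor subunits, which carry fast transmission, were all 4 called higher with Bic/4AP than with TTX on the deposited scale, where 23.7% of all genes were. In the decile of highest mean expression, which holds Gria1 and Gria2, 80.1% of genes were. After quantile and cyclic loess normalization Gria1 was lower with Bic/4AP (-0.16 and -0.25, limma adjusted p = 0.00320 and 0.00247), and the other 3 stayed higher. Gria2, the subunit that makes the channel impermeable to calcium, stood at 67.2 ± 2.63 against 41.1 ± 1.45 RPKM (0.70 ± 0.076, SE, limma adjusted p = 4.38e-06). In the same comparison no NMDA receptor gene was called higher on the deposited scale. The kainate receptor subunit Grik4 fell from 33.0 ± 3.96 to 12.2 ± 0.300 RPKM with Bic/4AP (-1.36 ± 0.078, SE, limma adjusted p = 2.97e-08).

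A list of 58 genes of NMDA receptor scaffolds, signalling, trafficking and co-agonist supply was counted in the same way. Of the 57 tested, 20 rose and 26 fell with Bic/4AP against untreated, where 29.6 and 42.5% of all genes did, with a median of 0.01 beside -0.12. These counts became 11 and 35 after quantile normalization and 12 and 37 after cyclic loess normalization. Homer1, a postsynaptic scaffold whose short form is induced by activity, had the largest rise, from 30.1 ± 0.957 to 72.1 ± 2.51 RPKM (1.24 ± 0.049, SE, limma adjusted p = 4.08e-09). Reln, a secreted glycoprotein that acts on NMDA receptors through lipoprotein receptors, rose from 24.1 ± 4.23 to 39.9 ± 3.38 RPKM. Lin7a, a scaffold of the complex that carries Grin2b vesicles, rose from a mean of 48.5 to one of 77.5 RPKM. Slc7a10, a transporter of the co-agonist D-serine, fell from 8.19 ± 1.13 to 0.0417 ± 0.0361 RPKM. Rasgrf1, a calcium-activated exchange factor for Ras, fell from 47.1 ± 8.84 to 12.2 ± 1.74 RPKM. Kif17, the kinesin motor that carries Grin2b vesicles along dendrites, fell from 11.8 ± 1.87 to 2.71 ± 0.443 RPKM (-1.78 ± 0.15, SE, limma adjusted p = 5.08e-07).

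With TTX against untreated, 14 genes of the list rose and 23 fell, where 40.6 and 23.5% of all genes did, with a median of -0.09 beside 0.13. After cyclic loess normalization 10 rose and 28 fell. The largest rises were those of Slc6a9, the glycine transporter GLYT1, from 6.68 ± 2.02 to 12.5 ± 0.643 RPKM, of Gipc1, a scaffold with a PDZ domain, from 15.6 ± 1.38 to 27.6 ± 1.53 RPKM, and of Ephb2, a receptor kinase that binds Grin1 protein, from 13.7 ± 1.47 to 23.8 ± 1.31 RPKM. Slc7a10 fell to 0.0592 ± 0.0368 RPKM and Rasgrf1 to 18.2 ± 1.39 RPKM. The next largest fall was that of Dlgap2, a postsynaptic scaffold, from 40.0 ± 6.17 to 23.6 ± 1.11 RPKM.

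With Bic/4AP against TTX, 22 genes of the list were higher and 26 lower, where 23.7 and 53.1% of all genes were, with a median of -0.01 beside -0.33. Homer1 and Lin7a led the higher ones, followed by Ppp3r1, the regulatory subunit of calcineurin, at 146 ± 3.29 against 75.1 ± 4.71 RPKM. Lin7b, a relative of Lin7a, led the lower ones at 5.41 ± 0.442 against 21.0 ± 0.630 RPKM, followed by Ephb2 at 7.19 ± 0.607 against 23.8 ± 1.31 RPKM. Actn2, an actin-binding protein that holds Grin1 protein, was lower at 4.95 ± 0.895 against 16.9 ± 1.24 RPKM.

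The genes whose values across the 9 libraries were most like those of each tested member were named by Pearson's r of log2(RPKM + 1), as a description over 11996 genes with a mean of 5 RPKM or more in a group. The 9 points share 3 groups and their depth. For Grin2a they were Snord57, a small nucleolar RNA listed at 0 in every treated library, Syt7, a calcium sensor of slow release, and Trank1, each with r = 0.996. Trank1 stood at 88.9 RPKM untreated, 25.3 RPKM with TTX and 24.4 RPKM with Bic/4AP. Grin1 was most like Eif4g3, Clu and Bin1 (r = 0.994, 0.994 and 0.992), and Grin2b most like Gm15800, Celf3 and Dst (0.996, 0.995 and 0.992). Grin2d was most like Mrps27, Wdtc1 and Ube3b (0.998, 0.997 and 0.997). Grin3a had the lowest of these values, with 1810058I24Rik, Slc41a2 and Fgf11 (0.977, 0.971 and 0.967).

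H3K27ac, an acetylated histone that marks active promoters and enhancers, was read from the authors' peak lists, called per sample. The lists differed in size. Untreated list 1 held 4846 peaks and Bic/4AP list 1 held 7721, whereas untreated list 2 held 49701 and Bic/4AP list 2 held 55035, covering 2.37, 7.77, 71.6 and 86.3 Mb. Whether a peak missing from a first list reflects the size of that list was not tested. Start sites came from the promoter entries for 4 members. For Grin2a, Grin2b and Grin3a the start was taken as the end of the gene span with the lower CpG methylation, where the mean within 1 kb was 0.0694 for Grin2a and 0.141 for Grin2b, against 0.853 and 0.892 at the other end. The far end of Grin3a read 0.923. The low methylation at these 3 starts is therefore set by the choice. Applied to Grin1 and Grin2d, whose strand is known, the same rule would pick the wrong end. Their far ends read 0.0629 and 0.203, against 0.0711 and 0.223 at the end nearer the start.

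Grin2a and Grin2b had an H3K27ac peak within 1 kb of the start site in all 4 lists, as did 7.91% of 16784 genes. Grin1 had a peak at the start in both Bic/4AP lists and in untreated list 2. Its only peak in untreated list 1 lay elsewhere in the gene. Grin2c, Grin2d, Grin3a and Grin3b had none in any list, although Grin3a and Grin2d had more RNA than most genes in the untreated libraries (above 62.8 and 53.1% of 24058 names). Each list taken alone held a start-site peak for 2 of 7 members against 9.31% of genes in untreated list 1, 3 of 7 against 28.4% in untreated list 2, 3 of 7 against 20.5% in Bic/4AP list 1 and 3 of 7 against 36.7% in Bic/4AP list 2. No member gained a start-site peak in both Bic/4AP lists while lacking it in both untreated lists, as 2.66% of genes did. With a score of 100 or more, or an overlap of 500 bases or more, only Grin2b was left in all 4 lists.

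The authors' peak score at the start site can be ranked only within a list. In untreated list 2 it was 3100 for Grin2b, 2736 for Grin2a and 583 for Grin1, and in Bic/4AP list 2 it was 3100, 1865 and 1375 in the same order. Among these starts, that of Grin2b thus scored highest in both lists. A peak that runs past the far end of Grin1, from 25.6 to 33.7 kb from its start, scored higher in untreated list 2, at 3187. The value 3100 recurs, also at a Grin2a peak far from the start in untreated list 2, so it is not particular to Grin2b.

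Inside the long genes the lists held many more peaks. Grin2a had 61 in untreated list 2 and 57 in Bic/4AP list 2, which covered 105 and 104 kb, or 24.6 and 24.4% of the gene. Grin2b had 46 and 94, which covered 64.0 and 184 kb, or 13.9 and 40.1% of the gene. Its coverage was 2.88 times larger in Bic/4AP list 2, a ratio above 89.0% of 4743 genes with a span of 10 kb or more and 1 kb covered, whose median ratio was 1.08. A ratio of 1.5 or more was found for 32.0% of those genes and one of 1/1.5 or less for 29.8%. In the first lists Grin2b had 3.38 kb covered untreated and 5.72 kb with Bic/4AP, a smaller rise than that of all covered bases in these lists, and Grin2a had 2.31 and 1.24 kb. With 2 lists per group of such unequal size no test was made. Grin2b RNA was lower, not higher, with Bic/4AP.

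Grin1 had 4 and 3 peaks in the second lists, covering 5.52 and 4.13 kb of the gene. Of the 4, the peak from 25.6 to 33.7 kb from the start runs past the gene's far end. No peak of Bic/4AP list 2 in the gene lay beyond 15.9 kb. The start-site peak was 1.20 kb wide in untreated list 2 and 3.32 kb in Bic/4AP list 2. The peak near 13 kb was 1.48 and 2.35 kb wide. In the first lists 0.705 kb of Grin1 was covered untreated and 1.87 kb with Bic/4AP. Grin2d had 1 peak, of score 88.8, in untreated list 2 and none in the others. No peak of any of the 4 lists overlapped Grin2c, Grin3a or Grin3b. H3K4me1, a mark of enhancers that was read in untreated neurons only, had no peak at any member's start site, where 0.655 and 0.620% of genes had one in its 2 lists. It had 33 and 25 peaks in Grin2a, 63 and 56 in Grin2b, 6 and 6 in Grin1, 1 and 0 in Grin2d and none in the other 3 genes.

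CpG methylation, given by the authors as the methylated fraction of each CpG with no coverage, was low at all start sites and close to the same in the 3 libraries. For Grin1, the 86 CpGs within 1 kb of the start that all 3 libraries list averaged 0.0707 in the untreated, 0.0671 in the TTX and 0.0754 in the Bic/4AP library. For Grin2a it was 0.0659, 0.0686 and 0.0739 (81 CpGs), and for Grin2b 0.144, 0.141 and 0.138 (39 CpGs). Grin2d read 0.0713, 0.0624 and 0.0686 (104 CpGs), Grin2c 0.131, 0.124 and 0.119 (99 CpGs), Grin3a 0.0520, 0.0607 and 0.0372 (81 CpGs) and Grin3b 0.179, 0.172 and 0.155 (73 CpGs). The median of 15674 genes was 0.102 untreated, so the members lay on both sides of it. Grin2d, which had no start-site H3K27ac peak, was as little methylated there as Grin1. The start used for Grin2d, chr7:45866681, lies inside the gene span. Within 1 kb of the span's end on that side, at 45871194, the mean of the 3 libraries was 0.223.

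No member differed by 0.1 or more between any of the 3 pairs of libraries, a size reached by 1.24% of genes for Bic/4AP against untreated, 1.43% for TTX against untreated and 1.22% for Bic/4AP against TTX. The largest difference of a member was that of Grin3b, -0.02 for Bic/4AP minus untreated. With 1 library per treatment and unknown depth there was no test.

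In the promoters printed above, the mean over the CpGs listed in all 3 libraries was 0.0448 untreated for Grin1 (32 CpGs) and 0.0915 for Grin2c (15 CpGs). Grin3b, with 3 CpGs, had 0.439 untreated, 0.383 with TTX and 0.415 with Bic/4AP. In Grin2d only 3 of its 12 CpGs were listed in all 3 libraries, and their mean was 0.189 in the untreated, 0.0667 in the TTX and 0 in the Bic/4AP library, each from too few sites to compare. Both strands of the 4 promoters were searched for motifs of factors that respond to activity. The full cAMP response element TGACGTCA was in none of them and in 2.41% of all promoters. Its short form TGACG was found in Grin1 at positions -31 and -5 from the start site, and in 24.4% of all promoters. Grin1 also held GCGNGGGCG, the motif of the EGR family, at position 4, as did 7.66% of promoters, and it overlaps a match to the GC box GGGCGG at position 8. Grin2c held 3 GC boxes, at -50, -40 and -35, where 47.1% of promoters held any. The AP-1 motif TGANTCA was found in Grin3b at -124 and in 7.34% of promoters. Grin2d held none of these motifs, and a match of letters does not show binding.

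**Figure D4:**
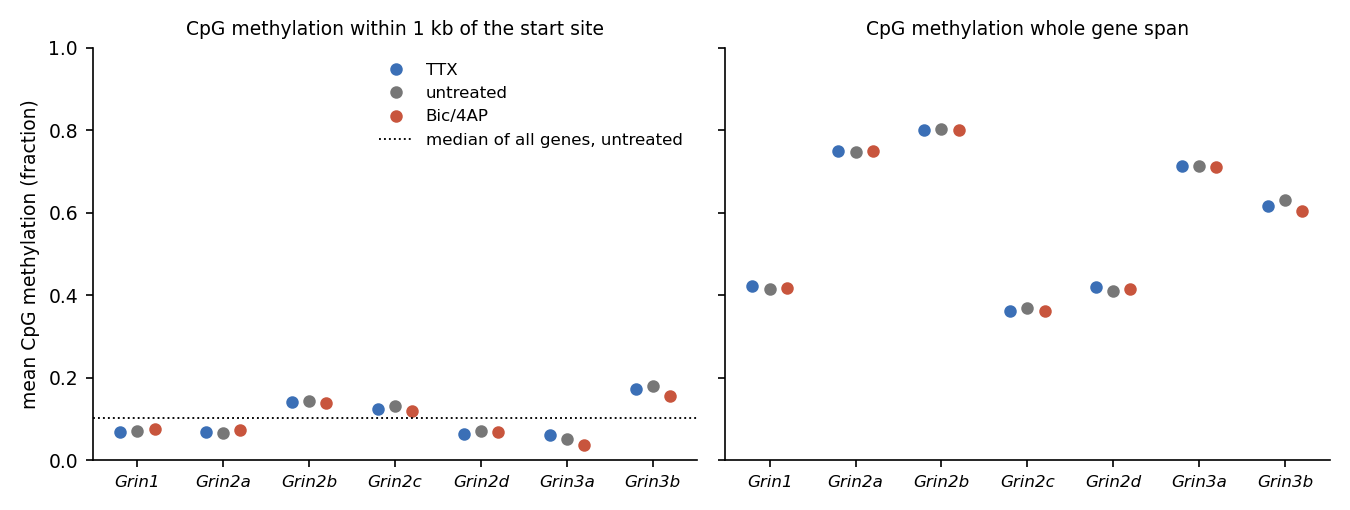
Mean CpG methylation (fraction, vertical axis) of each NMDA receptor gene in the TTX, untreated and Bic/4AP bisulfite libraries, within 1 kb of the start site (left) and over the whole gene span (right), with a dotted line at the median of all genes. Start sites lay between 0.0372 and 0.179 and gene spans between 0.361 and 0.803, and the 3 libraries of a gene almost coincided.

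Over whole genes, Grin2b was the most methylated member at 0.803 untreated, 0.802 with TTX and 0.800 with Bic/4AP, followed by Grin2a at 0.748, 0.750 and 0.750 and Grin3a at 0.712, 0.714 and 0.712. Grin3b, the shortest, read 0.632 untreated, and Grin1, Grin2d and Grin2c read 0.415, 0.410 and 0.369. Of 219 bins of 5 kb with at least 10 shared CpGs inside the members, none differed by 0.1 or more in any comparison, where 0.717% of 424195 bins did for Bic/4AP against untreated, 0.738% for TTX against untreated and 0.664% for Bic/4AP against TTX.

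More than 2 kb from the start site, CpGs inside H3K27ac peaks of untreated list 2 were less methylated than those outside them. In Grin2a the means were 0.669 inside and 0.840 outside, in Grin2b 0.700 and 0.840 and in Grin1 0.178 and 0.621, all in the untreated library. The Grin1 peaks include the peak that runs past the far end of the gene. Within 1 kb of that end the mean of the 3 libraries was 0.0629. The 1037 CpGs of Grin2b that lay in Bic/4AP list 2 but not in untreated list 2 had a mean of 0.842 untreated and 0.837 with Bic/4AP, like the CpGs outside peaks. The least methylated bin of Grin2b, at 266 kb from the start, read 0.450 untreated, 0.433 with TTX and 0.432 with Bic/4AP and lay in a peak of untreated list 2 with a score of 3100. Single peaks varied more. Of 76 member peaks of untreated list 2 with at least 5 shared CpGs, 7 differed by 0.1 or more between Bic/4AP and untreated, 2 between TTX and untreated and 4 between Bic/4AP and TTX. Over all 35032 such peaks 5.50, 5.53 and 5.58% did. Of the 7, 4 were in Grin2b, all lower with Bic/4AP, and 3 in Grin2a, of which 2 were higher.

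**Figure D5:**
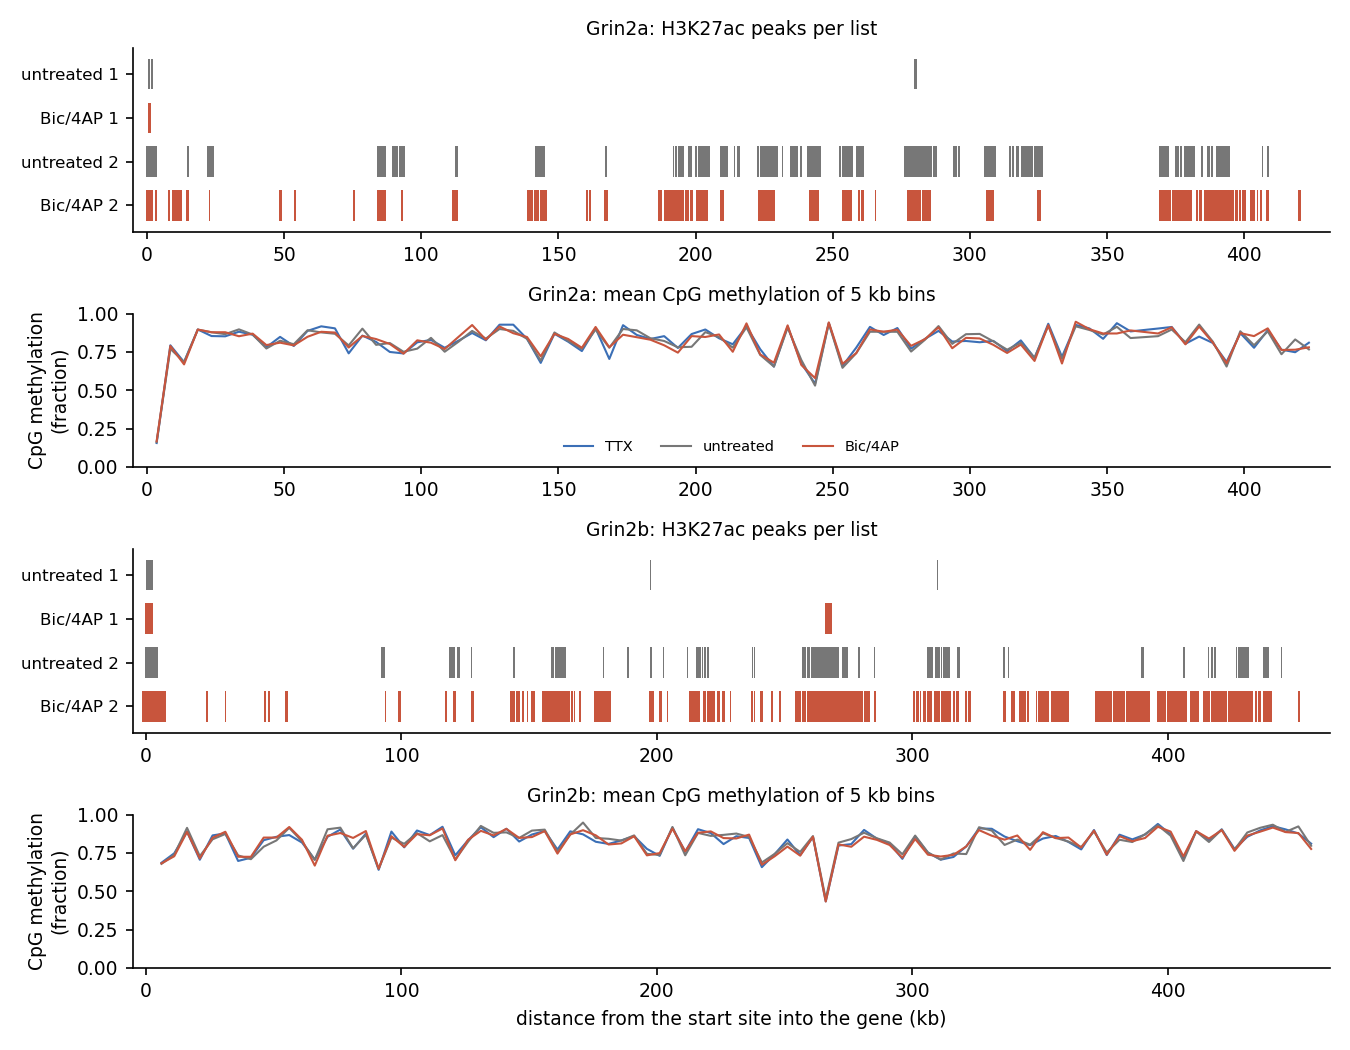
H3K27ac peaks in the 4 lists (bars, to scale) and mean CpG methylation of 5 kb bins (fraction) along Grin2a and Grin2b, against distance from the start site in kb. Grin2b has 46 peaks in untreated list 2 and 94 in Bic/4AP list 2, and the methylation lines of the 3 libraries almost coincide, with a dip near 266 kb in Grin2b.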

How the data were processed

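RNA-seq, H3K27ac and H3K4me1 ChIP-seq and bisulfite sequencing were used, with groups taken from the sample labels; the input sample was not analysed here. The labels' protocols name poly(A) selection and a directional library kit for RNA, and adaptor tagging after conversion for bisulfite libraries. Per the submitters' processing notes, the tools named are MACS 1.4.1, TopHat, SAMtools 0.1.19 and Bowtie2 2.2.4, and the build is mm10. The deposited expression values are RPKM per gene and library. The deposited methylation values are a fraction per CpG, without coverage, so their depth is unknown. The deposited peak lists give the authors' score per peak, never below 50. No source used here states strand-aware counting or duplicate removal, so reads of overlapping antisense genes cannot be told apart.

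Library sizes came from the step of 1 read in microRNA and small nucleolar RNA genes of known length. For each of the 7 members a length was then searched at which all 9 values were whole read numbers within 0.15. That length gave the reads, so their being whole is set by the search. Differences were tested on log2(RPKM + 1) with the limma trend method (limma 3.58.1, R 4.3.3) in 1 fit of 9 libraries with no block, with Benjamini-Hochberg adjustment over 14801 genes. Ratios of subunits used exact permutation tests. Methylation used CpGs listed in all 3 libraries, at least 5 per window. Promoters and gene spans came from RefSeq tables of GRCm38.p6. All 7 members are named. Of the pathway list, the 3 genes with the largest change per comparison and direction are named, among those with a mean of 5 RPKM or more in a group. Gria2 and Grik4 were chosen after their values were seen. The members, lists and rules were chosen with earlier results of these data known. The limma step was tested on simulated data. Alternatives covered pseudocount, filter, normalization, replicate block, samples in the fit, single libraries left out, windows, scores and overlaps. One was added after the data were seen: reads per kilobase level off at the highest levels, and they were corrected for saturation at 2000 per kb.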

Additional observations from a re-analysis of the deposited data

How the results depend on the processing

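Grin1 and Grin2a were lower than untreated under both treatments in every alternative, as was Grin2b apart from the call lost without TTX library 1, and Grin2d was higher with TTX in all of them. Values that reversed with a call in at least 1 setting were those of Grin2d with Bic/4AP against untreated after quantile (0.22) and cyclic loess normalization (0.076), and of Grin2a with Bic/4AP against TTX after quantile normalization (0.24). Uncalled values that changed sign were Grin2a with Bic/4AP against TTX after cyclic loess (0.015), with the saturation correction (0.021) and without TTX library 2 (0.012) or Bic/4AP library 1 (0.032; range with 1 library left out -0.039 to 0.032), Grin3a in that comparison without Bic/4AP library 1 (-0.0027; range -0.0027 to 0.14), and Grin3a with TTX against untreated after cyclic loess (-0.027). The cause was not tested. Members with a start-site H3K27ac peak in all 4 lists fell from 2 to 1 with a score of 100 or more or an overlap of 500 bases, and so did the count for both untreated lists. The correction for saturation, chosen after the data were seen, gave 4, 4 and 3 members against 5, 4 and 3 and lost the Grin3a call.

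With 1 library left out, members called ranged from 4 to 5, 3 to 5 and 2 to 3 in the 3 comparisons, and pathway genes from 43 to 46 and 31 to 41. The log2 Grin2a to Grin2b difference ranged from -0.71 to -0.61 with Bic/4AP and -0.90 to -0.80 with TTX. Deviations from the group mean correlated at r from -0.17 to 0.04 between same-numbered libraries and from -0.13 to 0.21 between the others. Whether the numbers mark a shared culture or day is not labelled, and these values cannot decide it. With the replicate block, 5, 4 and 3 members were called, as without it, 46 and 36 pathway genes and 10 other subunits with Bic/4AP (9 without it); the ratio differences stayed -0.65 and -0.85 with an exact sign-flip permutation p = 0.25. Depth limits Grin2c and Grin3b, and a low methylation difference cannot be judged without coverage.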
